A study of Mus musculus with 60 samples.

Results

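The sublines CL6G36, CL6G45 and CL6G52 of the mouse embryonal carcinoma line P19CL6 were set against P19CL6 itself and its subline CL6G26. The sides were chosen on levels already seen in these arrays, above all on low Fst in the 3 sublines, so the contrast between them is described here and carries no test. Its members are the genes that separate the sides in full: every array of the 3 sublines lies below, or every one lies above, every array of P19CL6 and CL6G26. Of 13181 genes tested, 87 met this rule, 62 of them lower and 25 higher in the 3 sublines. Those 87 genes are 0.66% of the genes tested, the 62 lower ones 0.47% and the 25 higher ones 0.19%. Because the sides were picked for differences of this kind, nothing is read from these shares. The comparison used 48 of the 60 samples of the series, 24 on each of the array types MOE430A and MOE430B.

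All cells were undifferentiated embryonal carcinoma cells, the stem cells of teratocarcinomas, and the labels trace the line to a male C3H mouse embryo. The groups were the sublines CL6G36 (5 arrays of each type), CL6G45 (5) and CL6G52 (replicates 2 to 5, 4 arrays), against P19CL6 (5) and CL6G26 (5). The parental line P19 was also measured, on 5 arrays of each type, and was outside the comparison. P19CL6 is known for forming beating heart muscle when induced; the labels do not state how the sublines were obtained or whether each is 1 clone. No group was treated, and all were grown in the same serum-containing medium. The labels call the replicates biological without naming separate cultures, so p-values below measure the spread between these samples, which may be partly technical.

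In the mouse embryo, Wnt, Nodal and FGF signals meet in the posterior epiblast and induce the primitive streak, whose cells switch on transcription factors such as Eomes, Mixl1 and Foxa2 on their way to mesoderm and endoderm. Follistatin, the product of Fst, binds activin and keeps it from its receptors, and Axin2 is both a target and a brake of the Wnt pathway. Cultures of embryonal carcinoma cells can carry low levels of such genes beside the pluripotency network of Pou5f1, Sox2 and Nanog.

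Levels are log2 signals after quantile normalization within an array type, and a difference is the mean of the 3 subline means minus the mean of the P19CL6 and CL6G26 means. The floor below which signals were not ordered was 4.61 on MOE430A and 4.14 on MOE430B. The genes lie on MOE430A unless MOE430B is named. Before normalization the median signal of an array was 30.2 to 53.35 on MOE430A and 10.6 to 16.5 on MOE430B. On MOE430B its median over arrays was 13.35 in the sublines against 11.7 in P19CL6 and CL6G26, and on MOE430A 42.7 against 40.65. Precision is limited by how many arrays each strain has.

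Some arrays lay away from their labels. Over the 13181 genes, each centred on its mean over the 30 arrays, the array labelled CL6G52 replicate 1 had a mean correlation of 0.16 with the CL6G45 arrays and of -0.05 with the other CL6G52 arrays, and it was left out. With that array kept, 58 genes separated lower and 24 higher. The arrays labelled P19 replicates 4 and 5 had mean correlations of 0.11 and 0.10 with P19CL6, against 0.04 with the other P19 arrays. P19CL6 replicates 1 and 2 also stood apart, with 9.70 and 9.46 for Fst against 10.10 to 10.44 in replicates 3 to 5. Without those 2 arrays 72 genes separated lower and 37 higher. All 87 members are necessarily among them, since a gene separated on all arrays stays separated on fewer.

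The promoter letters of 3 members are shown here because Sp5 is a direct target of Wnt signalling and lay under the floor on every subline array, and because Nanog and Tdgf1 are members tied to Nodal signalling. RefSeq windows on GRCm38.p6, from 250 bases before to 50 bases after the start of a gene, were matched by symbol for 72 of the 87 members. Capitals mark CTTTGA, the core that TCF and LEF factors bind, in Sp5. In Nanog and Tdgf1 they mark AATNNACA, a loose pattern for FOXH1 whose 2 N positions accept any base. Both were searched on both strands. The Sp5 window is chr2:70474673-70474972 on the plus strand and holds 2 matches.
Sp5: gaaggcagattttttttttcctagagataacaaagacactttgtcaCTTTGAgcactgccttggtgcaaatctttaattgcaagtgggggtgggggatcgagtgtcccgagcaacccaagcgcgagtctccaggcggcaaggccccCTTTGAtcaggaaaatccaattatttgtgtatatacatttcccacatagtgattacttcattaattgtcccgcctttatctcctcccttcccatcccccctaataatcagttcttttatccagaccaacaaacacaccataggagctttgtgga
The Nanog window is chr6:122707239-122707538 on the plus strand, and its 2 matches overlap on opposite strands. The Tdgf1 window is chr9:110946109-110946408 on the minus strand and holds 2 separate matches.
Nanog: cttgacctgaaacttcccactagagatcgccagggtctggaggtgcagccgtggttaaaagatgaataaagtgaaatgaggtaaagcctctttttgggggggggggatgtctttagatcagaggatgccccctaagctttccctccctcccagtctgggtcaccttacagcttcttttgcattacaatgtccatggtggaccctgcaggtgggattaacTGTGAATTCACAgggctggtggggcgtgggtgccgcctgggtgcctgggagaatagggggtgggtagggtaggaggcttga
Tdgf1: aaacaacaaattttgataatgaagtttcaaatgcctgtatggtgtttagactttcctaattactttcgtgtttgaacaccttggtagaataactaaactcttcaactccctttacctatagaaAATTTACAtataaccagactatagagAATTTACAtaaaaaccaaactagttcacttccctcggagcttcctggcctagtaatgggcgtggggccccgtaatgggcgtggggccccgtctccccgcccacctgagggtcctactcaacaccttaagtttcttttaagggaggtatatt
CTTTGA occurred in 10 of the 50 matched promoters of lower genes (20%), in 1 of 22 of higher genes (4.55%) and in 16.2% of all 27025 promoters of the table. AATNNACA occurred in 12%, 4.55% and 12.3% of these. The shares of the lower genes were close to that of all promoters for both motifs, and Axin2, Eomes and Nodal held neither. The 3 windows shown hold 2 matches each, more than any other matched member holds for 1 motif, so they do not stand for the rest. The SMAD palindrome GTCTAGAC and TGATGNAA, a motif of ATF4 with CEBP factors, were found in 0 of the 72 windows, against 0.211% and 4.06% of all promoters. These matches describe letters in the windows and do not show binding.

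Fst had the widest gap between the sides of the 87 members, 1.67 between their nearest arrays. It read 6.58 at the lowest, 7.09 at the median and 7.43 at the highest in the 14 subline arrays, against 9.10, 9.37 and 10.44 in the 10 arrays of P19CL6 and CL6G26. The difference was -2.51, or 5.68-fold lower in the sublines. The means of the sublines lay close together, at 6.99 ± 0.34 in CL6G36, 7.21 ± 0.20 in CL6G45 and 7.07 ± 0.09 in CL6G52, against 9.99 ± 0.40 in P19CL6 and 9.21 ± 0.08 in CL6G26 (SD, n = 5, 4 in CL6G52).

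Fgf8, an FGF ligand of the primitive streak, read 5.61, 6.05 and 6.69 (lowest, median and highest) in the sublines against 7.59, 7.94 and 8.25 in P19CL6 and CL6G26, a difference of -1.85. Axin2 read 6.02, 6.34 and 6.80 in the sublines against 7.50, 7.61 and 7.99 in the other strains, a difference of -1.31. Eomes, a T-box factor needed for mesoderm and definitive endoderm, read 7.27, 7.71 and 8.15 in the sublines against 8.64, 8.83 and 9.31, a difference of -1.16. In all 3 genes the highest subline array thus stood at least 0.49 below the lowest array of the other side.

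Calcr, the calcitonin receptor, ran the other way. It read 6.21, 7.05 and 7.55 in the sublines against 4.57, 5.66 and 5.89 in P19CL6 and CL6G26, a difference of 1.38. CL6G52 was the lowest of the sublines, with a mean of 6.39 ± 0.13 against 7.19 ± 0.32 in CL6G36 and 7.15 ± 0.27 in CL6G45. All 5 marker genes of this contrast separated the sides, which the choice of the sides had used.

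**Figure D1:**
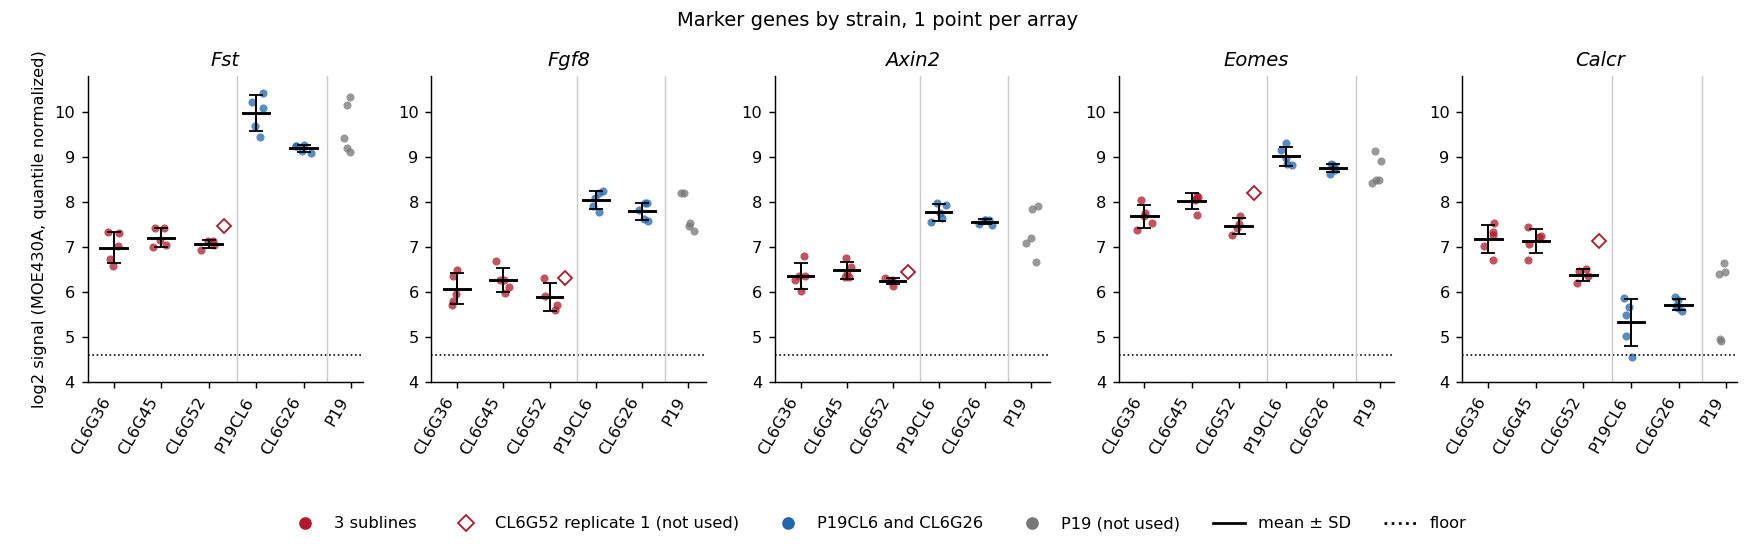
Log2 signal of Fst, Fgf8, Axin2, Eomes and Calcr on MOE430A by strain, 1 point per array, with the mean ± SD of the arrays used and the floor as a dotted line. Every subline array lies below the P19CL6 and CL6G26 arrays for the first 4 genes and above them for Calcr; open diamonds are CL6G52 replicate 1 and grey points P19, neither used.

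Of the 62 lower genes, 27 differed by at least 2-fold, 0.205% of the genes tested, and of the 25 higher genes 3 did, 0.0228%. With signals raised to the floor, 21 of the 27 were still separated and at least 2-fold lower, since the size of a difference below the floor is not measured. The other 57 members differed by less, the smallest being Psme4 at 0.18 higher. A further 92 genes differed by at least 2-fold between the sides without separating, 49 lower and 43 higher. Of the lower members 48 were above the floor on all 24 arrays, 8 were under it on some arrays, and 6 were under it on every subline array, where only a bound on the fold can be given. Of the higher members 23 were above the floor on all 24 arrays. Scaled to a trimmed mean, 53 genes separated lower and 28 higher, 51 and 22 of them members. With the deposited signals left unnormalized the split was 25 lower, all members, and 3 higher, of which Slc35d3 alone was a member, so that Calcr and the other higher members no longer separated.

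**Figure D2:**
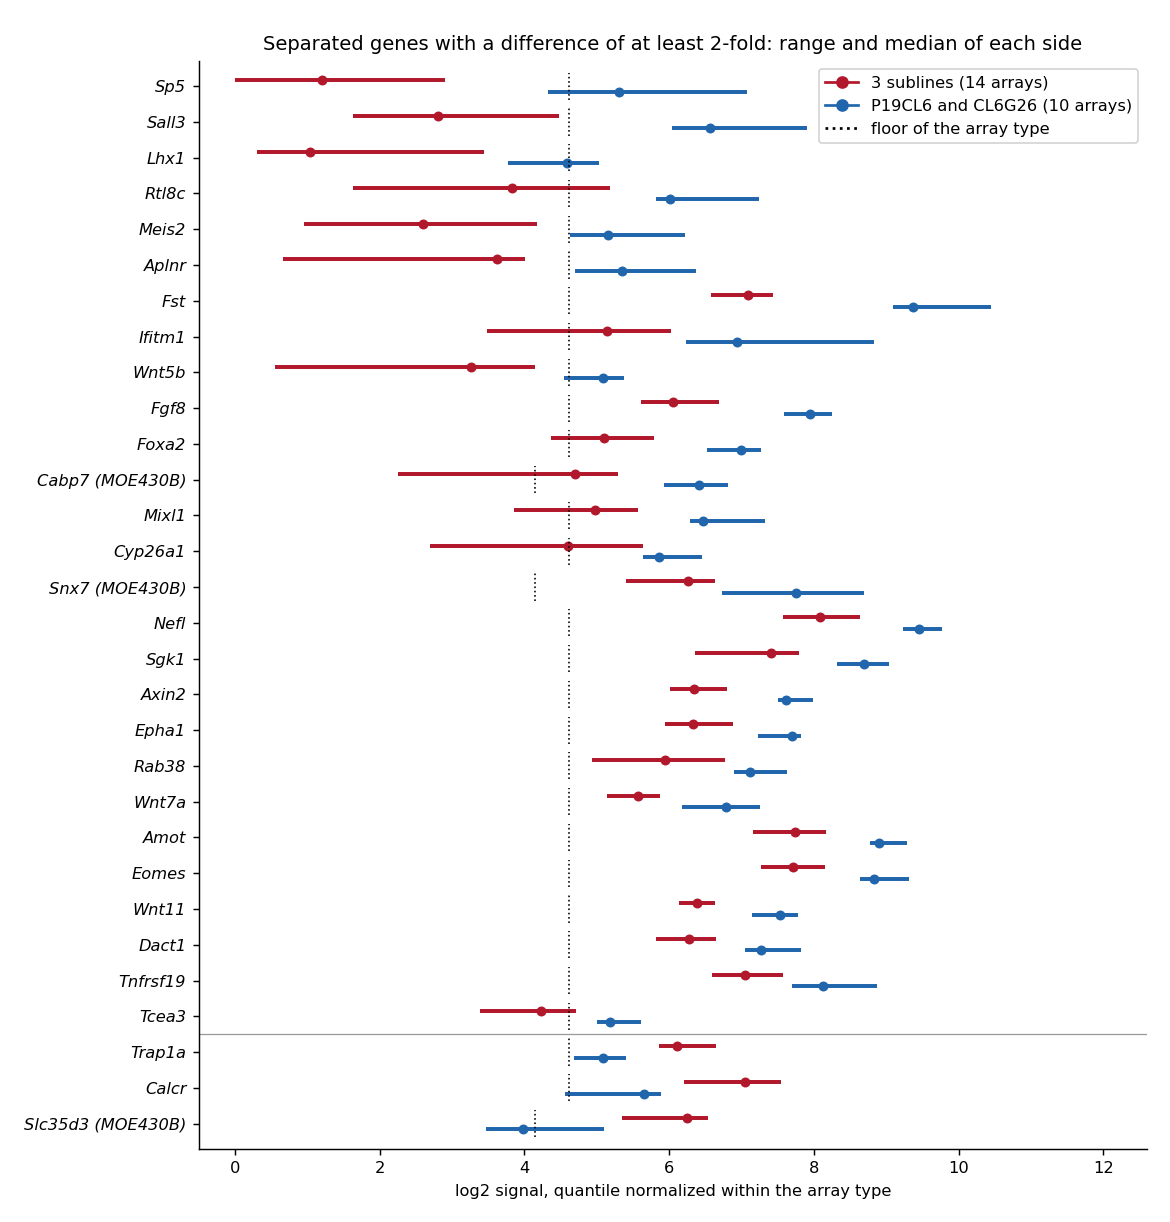
Range (line) and median (point) of log2 signal in the 3 sublines and in P19CL6 and CL6G26 for the 30 separated genes that differed by at least 2-fold, with the floor of the array type dotted. The 27 genes above the grey rule are lower in the sublines; in Sp5, Sall3, Lhx1, Meis2, Aplnr and Wnt5b the whole subline range lies under the floor.

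The separated Wnt genes were lower in the sublines. Of 31 tested ligands, receptors, regulators and targets, 5 separated and all 5 were lower, while 0.66% of all genes tested separated. Among the 5 was Axin2, which the choice of the sides had used, so nothing is read from this count. In the list 25 genes had a difference below 0, and the median was -0.25, against -0.00078 over all genes tested. Sp5, a zinc finger factor that Wnt signalling switches on, lay under the floor on all 14 subline arrays, at up to 2.90, and read 4.32, 5.30 and 7.07 in P19CL6 and CL6G26. It was at least 2.03-fold lower in the sublines, and it overlapped once signals were raised to the floor, because a CL6G26 array also lay under it. Wnt5b, read from an x_at probe set, was likewise under the floor on all subline arrays and at least 1.31-fold lower. The median of the other strains was 5.08. Wnt5b also overlapped once signals were raised to the floor, because a P19CL6 array lay under it. Nor did Wnt5b separate when probe sets were not filtered.

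Among the Wnt ligands well above the floor, Wnt11, which acts in cell movement and heart development, read 6.13, 6.39 and 6.64 in the sublines against 7.14, 7.54 and 7.78, a difference of -1.13. Wnt7a, a ligand outside the list and best known from limb and nerve, read 5.14, 5.57 and 5.88 in the sublines against 6.17, 6.79 and 7.26, a difference of -1.21. A dimmer probe set of Wnt7a on MOE430B did not separate and differed by 0.28 in the other direction, so the Wnt7a reading rests on its MOE430A probe set. Tnfrsf19, a receptor induced by Wnt signalling, differed by -1.03.

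The receptors of the pathway did not separate. Fzd7 differed by -0.11, Fzd2 by 0.14, Lrp6 by -0.04 and the repressor Tcf7l1 by 0.37, with overlapping ranges in each. Sfrp1, a secreted Wnt antagonist, differed by 0.86 without separating. Wnt-related members outside the list were Dact1, a Dishevelled-binding protein, at -1.04, and Vangl1, a membrane protein of planar cell polarity, at -0.88.

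In the Nodal and activin list 3 of 18 tested genes separated, all lower, and the list's median was 0.01. Beside Fst, these were the ligand Nodal and its co-receptor Tdgf1, also called Cripto. Nodal read 9.03, 9.27 and 9.54 in the sublines against 9.80, 10.07 and 10.30 in P19CL6 and CL6G26, a difference of -0.81. Tdgf1 read 8.98, 9.27 and 9.52 in the sublines against 9.60, 9.79 and 10.03, a difference of -0.58. The ligand and the co-receptor thus differed by less than 2-fold. Fst, the inhibitor of activin, had the largest difference of the list, but the sides were chosen above all on low Fst.

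Other parts of that pathway overlapped between the sides. Lefty1, a Nodal antagonist, differed by 0.04, the receptor gene Acvr2b by 0.01, and the effector genes Smad2 and Foxh1 by 0.16 and 0.13. Cer1, another antagonist, differed by -2.09 but was above the floor on 0 of the 14 subline arrays and 3 of the 10 others, so it gives no fold.

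Fgf8, which the choice of the sides had used, was the 1 separated gene among 23 tested FGF ligands, receptors and ERK feedback genes. The median of that list was -0.13. Etv4, a factor that FGF signalling induces, came close, at -0.82 with subline arrays up to 6.70 and the other arrays at 6.61 or more. Dusp6, Spry1 and Etv5 differed by -0.37, -0.13 and 0.04. None of 17 tested BMP pathway genes separated; 14 differed below 0, and the median was -0.24, with Id1 at -0.54 and Bmp4 near the floor.

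Of the 22 lists, that of the primitive streak and mesendoderm held the largest share of members. Of 16 tested genes, 5 separated, all lower, and 4 more were at least 2-fold lower without separating, with a list median of -1.25. Besides Fgf8 and Eomes, which the choice of the sides had used, the separated genes were Mixl1, Foxa2 and Lhx1. The lists were also chosen with earlier results known, so nothing is read from the rank of this list. In bulk cultures, fewer cells that express a gene and less RNA per cell cannot be told apart.

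Mixl1, a homeobox gene of the streak and nascent mesendoderm, read 3.86, 4.98 and 5.57 in the sublines against 6.29, 6.47 and 7.33 in P19CL6 and CL6G26. Its difference was -1.77, and -1.63 with signals raised to the floor, since 9 of the 14 subline arrays lay above it. Foxa2, a forkhead factor of definitive endoderm and the node, read 4.37, 5.10 and 5.79 in the sublines against 6.52, 6.99 and 7.28, a difference of -1.83. Both genes kept a clear gap, of 0.72 and 0.73 between the nearest arrays of the sides.

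Lhx1, a LIM homeobox gene of anterior mesendoderm, separated only at signals near or under the floor, with a median of 1.03 in the sublines and of 4.59 in the other strains, and gives no fold. Cdx2 and Evx1, homeobox genes of the posterior embryo, differed by -2.54 and -2.06 with overlapping arrays, and Cdx2 was under the floor on all 14 subline arrays. Mesp1, Tbx6 and Msgn1, genes of mesoderm that has left the streak, lay about the floor on both sides and differed by -0.30, 0.09 and 0.33.

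The pluripotency factors divided. Nanog, a homeobox factor of that network, read 7.14, 7.76 and 8.28 in the sublines against 8.59, 8.78 and 8.89, a difference of -0.89. Zfp281, a zinc finger partner of that network, was higher by 0.27, with the nearest arrays of the sides 0.02 apart. Pou5f1 read 11.13 to 11.66 in the sublines against 11.39 to 11.61, Sox2 8.49 to 9.33 against 8.25 to 8.90, and Lin28a 10.79 to 10.97 against 10.84 to 11.02. With Nanog, Tdgf1 and Zfp281, 3 of 11 tested genes of that list separated, 2 lower and 1 higher, and Pou5f1, Lin28a and Sall4, defining genes of embryonal carcinoma cells, were bright on every array. Of 8 tested naive pluripotency genes 0 separated, and the list's median was -0.13.

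**Figure D3:**
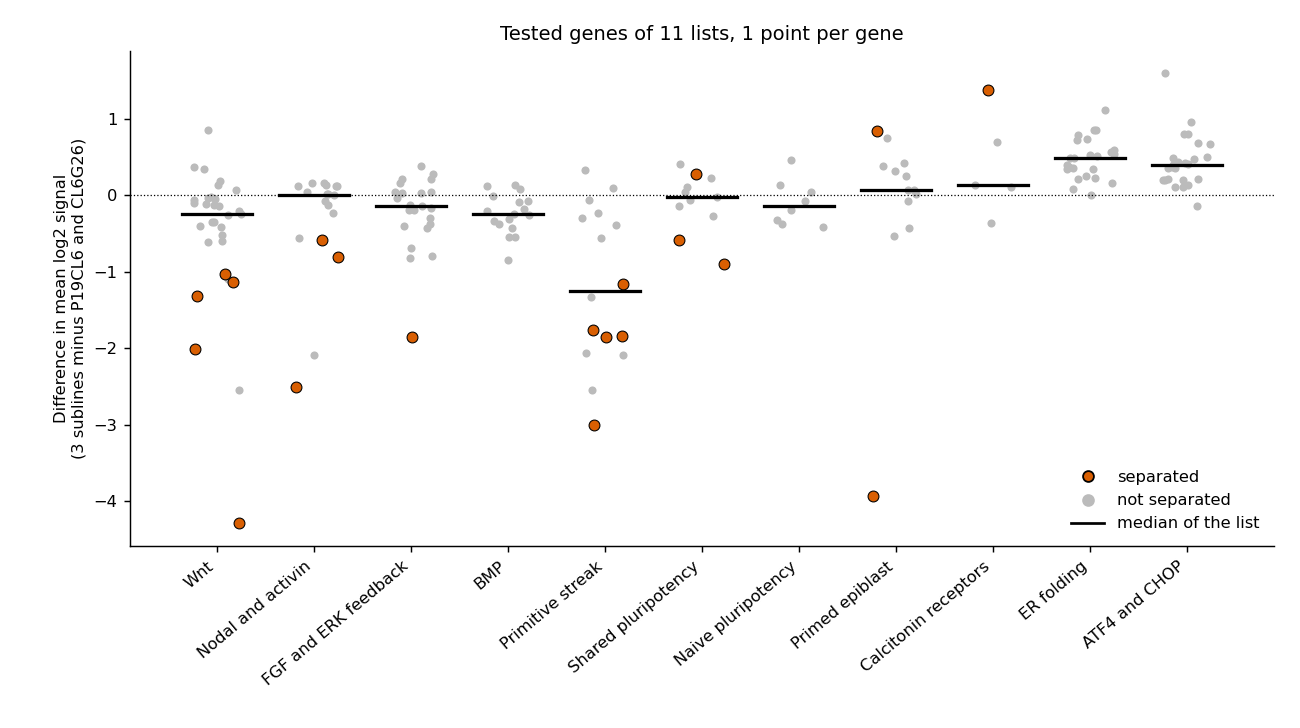
Difference in mean log2 signal, 3 sublines minus P19CL6 and CL6G26, for each tested gene of 11 lists, with separated genes in orange and the median of each list as a bar. Separated genes are lower in the Wnt, Nodal, FGF and primitive streak lists, while in the 2 lists of stress genes on the right the medians lie at 0.49 and 0.40 with no separated gene. Fst, Fgf8, Axin2, Eomes and Calcr, which the choice of the sides had used, are among the separated genes.

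Sall3, a spalt zinc finger factor, gave the largest bound. All 14 subline arrays lay under the floor, at up to 4.47, and all 10 others at 6.04 or more, so Sall3 was at least 4.68-fold lower in the sublines. Aplnr, the receptor for apelin and Elabela in nascent mesoderm, was at least 1.89-fold lower, and the homeobox gene Meis2 at least 1.59-fold lower, again with every subline array under the floor. Rtl8c, a Gag-like gene on the X chromosome, was above the floor on 4 of the 14 subline arrays and differed by -1.59 with signals raised to it.

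Ifitm1, an interferon-inducible membrane protein that is also active in the early embryo, read 3.48, 5.14 and 6.03 in the sublines against 6.24, 6.94 and 8.84, a difference of -2.10. Cyp26a1, which degrades retinoic acid, differed by -1.60, but its nearest arrays stood less than 0.01 apart, at 5.63 in a subline and 5.64 in the other strains. It was the 1 separated gene of 11 tested in the retinoic acid pathway, whose median was 0.05.

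Nefl, the light neurofilament chain, was bright on both sides, at 7.57, 8.09 and 8.64 in the sublines against 9.24, 9.46 and 9.77, a difference of -1.43. Sgk1, a kinase induced by serum and glucocorticoids, read 6.36, 7.40 and 7.79 in the sublines against 8.33, 8.69 and 9.04, a difference of -1.31. Amot, an angiomotin that binds the Hippo effector YAP, read 7.16, 7.74 and 8.17 in the sublines against 8.78, 8.90 and 9.28, a difference of -1.20. Amot was the 1 separated gene of 15 tested Hippo pathway genes, and its 2 other probe sets differed by -0.01 and -0.43 without separating.

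Receptors for ephrins were among the lower members. Epha1 read 5.94, 6.33 and 6.88 in the sublines against 7.22, 7.70 and 7.82, a difference of -1.31, and Epha2 differed by -0.91. Rab38, a small GTPase of melanosome transport, differed by -1.26, and on MOE430B the sorting nexin gene Snx7 by -1.51 and the calcium-binding Cabp7 by -1.79. Tcea3, a transcription elongation factor, differed by -0.61 with signals raised to the floor.

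Lower members under 2-fold included Pkdcc, a secreted protein kinase, at -0.88, the chemokine Cxcl12 at -0.76, Krt18, a keratin of simple epithelia, at -0.66, and the Notch target Hes1 at -0.64. Hes1 stood at the edge of the rule, with its nearest arrays 0.0043 apart, as did Kif1b among the higher genes at 0.0020. Just outside the rule, Selenos, G2e3, Spcs2 and Plce1 overlapped, with gaps of -0.0028 to -0.0046. Enzymes of lipid synthesis appeared as single genes, with Pmvk at -0.60, Ebp at -0.50 and Sptlc2 at -0.60. In the sterol list 1 of 15 tested genes separated, which was Pmvk, and Ebp was not on that list.

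The higher members were fewer and their differences smaller. Slc35d3, a member of the nucleotide sugar transporter family, had the largest difference, 2.04 on MOE430B, or 1.81 with signals raised to the floor, and read 5.34, 6.24 and 6.54 in the sublines against 3.47, 3.98 and 5.10. Trap1a, the gene of the tumour antigen P1A on the X chromosome, read 5.86, 6.11 and 6.65 in the sublines against 4.68, 5.09 and 5.41, a difference of 1.13. With Calcr, these were the 3 higher genes past 2-fold.

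Dnmt3a, a de novo DNA methyltransferase, read 8.82, 9.27 and 9.55 in the sublines against 7.98, 8.47 and 8.74, a difference of 0.84. Its partner Dnmt3b overlapped between the sides and differed by 0.07. Galr2, a receptor for galanin, differed by 0.89 and Enpp3, an enzyme that cleaves extracellular nucleotides, by 0.75. Ramp3, which pairs with receptors of the calcitonin family, differed by 0.70 without separating. Calcr, which the choice of the sides had used, was the 1 member among 5 tested genes of that family.

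Further genes of this direction lay between 0.51 and 0.64. Among them were Cthrc1, a secreted collagen triple helix protein, at 0.64, and the chromatin remodeller Chd9 at 0.63, both on MOE430B. Fam126a, the gene of hyccin, differed by 0.58 and the translation factor Eif4g3 by 0.57. Dimmer probe sets of Eif4g3 on MOE430B differed by 0.44, -0.13 and -1.14, and those of Chd9 by 0.45 and -0.11, without separating. The deacetylase Sirt1 differed by 0.54, and Pipox, an oxidase of pipecolic acid, and the helicase-like Hltf by 0.51 each. Each of the genes listed here was above the floor on all 24 arrays.

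The differences among CL6G36, CL6G45 and CL6G52 were not used in choosing the sides, although the levels of all 3 were. These differences were tested with a moderated F test (limma, Benjamini-Hochberg adjustment within an array type, 24 arrays of 5 strains, 19 residual degrees of freedom). With an adjusted p under 0.05 and a range of the subline means of at least 2-fold, 363 genes were called, 2.75% of those tested. Of the 87 members 3 were among them, Sall3, Ifitm1 and Mixl1. Without the fold limit 3233 genes had such an adjusted p, 24.5%, and 28 members did. Set against these shares, nothing particular to the members is read from either count. CL6G52 replicate 1 had been left out because its profile lay with CL6G45, a choice that bears on this test. With that array kept, 250 genes were called, and 2450 without the fold limit.

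Mixl1 averaged 4.21 ± 0.34 in CL6G36, 5.06 ± 0.16 in CL6G45 and 5.36 ± 0.29 in CL6G52 (SD), a range of 1.15 (adjusted p = 8.1e-05 by limma's F test). All 5 CL6G36 arrays were below the floor. Once signals were raised to that floor the range came to 0.75, under 2-fold. Ifitm1 ran in the same order, at 4.47 ± 0.60, 5.21 ± 0.15 and 5.93 ± 0.08, a range of 1.46 (adjusted p = 0.000856 by the same test). With 3 of the 5 CL6G36 arrays above the floor, its range was 1.18 once signals were raised to it, still at least 2-fold. The Sall3 means differed by 1.63 (adjusted p = 0.000708), but all lay under the floor, where signals have no order. Among members under the 2-fold range, Olfm1, a secreted olfactomedin, was lowest in CL6G36 at 7.52 ± 0.08 against 8.23 ± 0.11 in CL6G45 and 8.33 ± 0.09 in CL6G52 (adjusted p = 2.7e-10). Fst did not differ detectably among the 3, with a range of 0.22 (adjusted p = 0.48 by limma's F test), but the 3 were chosen for low Fst.

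CL6G26 was tested against P19CL6 in the same fit, a contrast within the other side. The choice of sides did not use this difference, but it did use the levels of both strains. The test gave 44 calls, 0.334% of the genes, 8 higher and 36 lower in CL6G26, and 2 of the 87 members were among them. Snx7 was higher in CL6G26, at 8.43 ± 0.18 against 7.07 ± 0.23 in P19CL6, a difference of 1.36 ± 0.16 (SE, limma, adjusted p = 7.6e-06). Ifitm1 was lower in CL6G26, at 6.55 ± 0.22 against 8.05 ± 0.80, a difference of -1.50 ± 0.27 (SE, limma, adjusted p = 0.000829). For these 2 genes the level of the side against which the sublines were set thus depended on the strain.

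Without the fold limit 360 genes, 2.73%, differed between CL6G26 and P19CL6, and 13 of the 87 members did. Fst was lower in CL6G26, with a difference of -0.78 ± 0.15 (SE, limma, adjusted p = 0.0017), and stayed above every subline array there. Wnt7a was higher in CL6G26 by 0.79 ± 0.11 (adjusted p = 2.94e-05) and Vangl1 by 0.60 ± 0.09 (adjusted p = 6.92e-05), while Dact1 was lower, with a difference of -0.45 ± 0.11 (adjusted p = 0.0153). The Wnt-related members thus did not share 1 direction between these strains.

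The arrays outside the rule were placed on a scale where 0 is the mean of the 3 sublines and 1 the mean of P19CL6 and CL6G26. CL6G52 replicate 1 lay past the midpoint on the subline side for 54 of the 62 lower and 23 of the 25 higher genes, with median positions of 0.00 and -0.17. It read 7.48 for Fst, 6.32 for Fgf8 and 7.13 for Calcr, on the subline side in each. Both CL6G52 and CL6G45, with which its whole profile lay, are on that side. The placement of this array therefore does not tell which of these sublines it belongs to.

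P19 replicates 1, 2 and 3 stood between the sides for many members, with median positions of 0.73, 0.75 and 0.74 for the lower genes and 0.38, 0.44 and 0.32 for the higher ones. They lay past the midpoint on the subline side for 37, 34 and 30 of the 87 members. P19 replicates 4 and 5 did so for 3 and 8 members, with median positions of 1.14 and 1.12 for the lower genes. In Fst, P19 replicates 1 to 3 read 9.21, 9.12 and 9.44, above every subline array, and in Calcr 6.41, 6.65 and 6.46, above every P19CL6 and CL6G26 array. Some members left the scale: Akap11, an anchor of protein kinase A, stood at -4.12, -4.87 and -5.40 in P19 replicates 1 to 3, beyond the sublines.

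**Figure D4:**
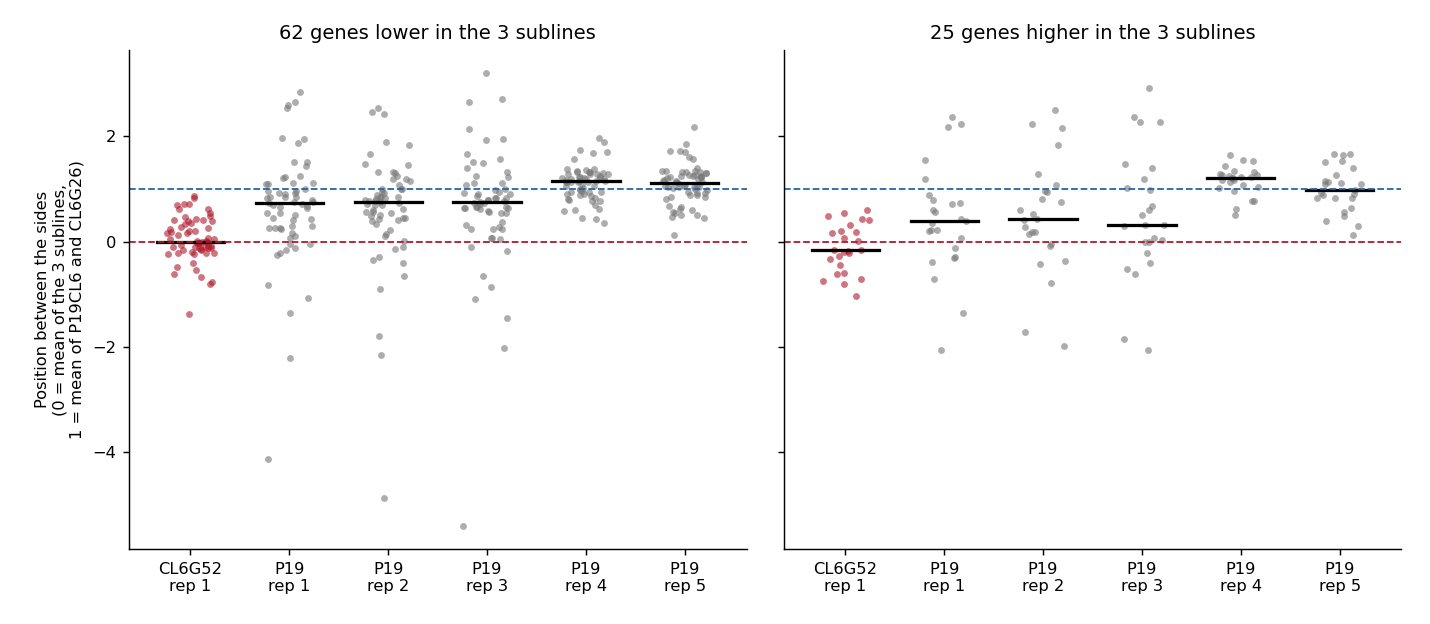
Position of CL6G52 replicate 1 and the 5 P19 arrays between the sides (0 is the mean of the 3 sublines, 1 the mean of P19CL6 and CL6G26), 1 point per member gene, with medians as bars, for the 62 lower genes (left) and the 25 higher genes (right). CL6G52 replicate 1 centres on the subline level, P19 replicates 1 to 3 spread widely between and beyond the sides, and replicates 4 and 5 lie about the level of P19CL6 and CL6G26.

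Other probe sets read the same RNA and describe the same contrast. Of the members, 44 had 81 further tested probe sets, and 71 of these differed in the member's direction. A second probe set also separated in the same direction for 9 members, Fst, Eomes, Nodal, Nefl, Rab38, Agpat3, Dnmt3a, Enpp3 and Trio, and 0 separated in the opposite one. The further probe set of Fst lies on MOE430B and differed by -2.59, and those of Eomes and Nodal by -1.42 and -0.83. In contrast, the 3 further sets of Ints6 differed by -0.12 to -0.01 against 0.44 for the set used.

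Markers of other cell types were set beside these results. Of 10 tested extraembryonic endoderm genes 8 differed below 0, with a list median of -0.43, and Foxa2 was the 1 that separated. The summed signal of that list ran from 1598 to 2468 in the sublines and from 1951 to 2454 in P19CL6 and CL6G26. Gata6 and Gata4, which define those cells, lay near the floor on both sides. The 5 tested trophoblast genes, which include Eomes and Cdx2, summed to 269.9 to 459.7 in the sublines against 553.7 to 852.5. The choice of the sides had used Eomes, so nothing is read from the gap in this sum. Gata3, Hand1 and Ascl2 did not separate. Summed neural, cardiac and fibroblast markers overlapped, at 923 to 1096, 443 to 744 and 117 to 167 in the sublines against 986 to 1178, 470 to 772 and 110 to 163, with 0 separated genes. Their part in the results was not tested.

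Genes of protein folding stress were highest in CL6G36 and CL6G45. The summed signal of 24 tested endoplasmic reticulum folding genes was 20740 to 24809 in CL6G36 and 20586 to 22613 in CL6G45, 16563 to 17867 in CL6G52, and 12960 to 14903 in P19CL6 and 16636 to 17184 in CL6G26. All 24 differed above 0 with a median of 0.49, and 25 of 26 tested genes of the ATF4 and CHOP response did with a median of 0.40, but 0 genes of either list separated the sides. Ddit3, the gene of CHOP, averaged 8.62 in CL6G36, 8.12 in CL6G45 and 4.41 in CL6G52 (range 4.21, adjusted p = 4.31e-08 by limma's F test). It was above the floor on 13 of the 14 subline arrays, and its lowest subline reading was 2.62. CL6G52, which shares the low Fst, Fgf8 and Axin2, thus did not share the high Ddit3, and the part of these genes in the results was not tested.

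The ratio of the 3' to the 5' probe set of Gapdh is a sign of RNA quality and labelling. It overlapped between the sides but had the lower median in the sublines on both array types. On MOE430A its log2 had a median of -0.26 in the sublines and -0.19 in P19CL6 and CL6G26. It ran from -0.36 to -0.11 in the sublines and from -0.27 to -0.17 in P19CL6 and CL6G26. On MOE430B the medians were -0.31 and -0.24, and the ranges -0.38 to -0.21 against -0.27 to -0.19. The Actb ratios overlapped as well. The part of RNA quality in the results was not tested.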

How the data were processed

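Undifferentiated cells of 6 strains were measured on MOE430A and MOE430B arrays. The authors deposited 1 linear intensity per probe set and array; the submitters' processing notes name GCOS, with no version. Any scaling step is, in the sources used here, not given. The deposited values were quantile normalized over the 30 arrays of a type, signals under 1 set to 1, and log2 was taken. Testing was limited to probe sets above the floor (the 40th percentile on MOE430A, the 60th on MOE430B) on 5 or more arrays. This left 15068 and 12131 probe sets. Genes were named through GEO's platform annotation: on MOE430A 20380 probe sets had 1 gene symbol, 691 several and 1555 none, and on MOE430B 14661, 245 and 7605. The brightest probe set stood for a gene, x_at kinds only where it had no other, MOE430A before MOE430B (8906 and 4275 genes).

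Strains were weighted equally. Tests used limma 3.58.1 in R 4.3.3 (group means, eBayes with a trend in mean signal, two-sided, Benjamini-Hochberg within an array type) and were tested on simulated data. A gene under the floor on all arrays of a side has a bound, the mean of the brighter side against the floor. Figures were drawn with matplotlib. CL6G52 replicate 1 and P19 entered no test except under alternatives. Replicate numbers did not pair the samples: over 46 pairs of equal number between strains, the median correlation of deviations from the strain means was -0.0041 on MOE430A, and 1 pair exceeded 0.1.

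Members, the 22 gene lists and the rules were chosen with earlier results of these data known. The named genes are the 5 markers, in each direction the 12 largest differences above the floor on all 24 arrays and up to 6 of the largest bounds where every array of the brighter side was above the floor (met by 3 lower genes and by 0 higher ones), up to 4 genes of each list described (separated ones first), and the 4 members with the largest called range or change in each test. Clone names were left out, and the difference of 1 named gene is not reported here. Other genes were named after their values were seen. The alternatives tried were the deposited and a trimmed mean scaling, signals raised to the floor, other filters, and the mean of probe sets. CL6G52 replicate 1 was also kept, and arrays and strains were left out. For the tests a replicate block, other fits and no trend were tried as well.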

Additional observations from a re-analysis of the deposited data

Results flagged for a closer look

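Among 30 named genes and 150 groups of 1 gene in 1 strain, 12 single arrays stood apart from the rest of their strain by Dixon's criterion; chance alone gives about 5% of groups. In CL6G36, replicate 5 read 5.40 for Snx7 against 6.41 to 6.64 in the other replicates, and replicate 4 read 8.39 for Enpp3 against 8.51 to 8.54. In CL6G45, replicate 5 read 7.72 for Eomes against 8.05 to 8.15 and 2.43 for Sall3 against 1.63 to 1.76, all under the floor. In the same strain, replicate 2 read 8.82 for Dnmt3a against 9.07 to 9.17 and 8.75 for Enpp3 against 8.46 to 8.53, and replicate 1 read 5.47 for Ifitm1 against 5.10 to 5.20. In CL6G52, replicate 2 read 8.06 for Amot against 8.15 to 8.17 and 8.67 for Trio against 8.86 to 8.88, and replicate 3 read 3.60 for Aplnr, under the floor. P19CL6 replicate 4 read 7.63 for Rab38 against 7.02 to 7.13, and CL6G26 replicate 1 read 6.89 for Chd9 against 6.61 to 6.68.

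Of the members, 3 differed between sublines that share a side, among them Sall3 and Ifitm1 from the arrays above. By limma's moderated F test over CL6G36, CL6G45 and CL6G52, the subline means of Sall3 had a range of 1.63 (adjusted p = 0.000708), those of Ifitm1 of 1.46 (adjusted p = 0.000856) and those of Mixl1 of 1.15 (adjusted p = 8.1e-05). All 14 subline readings of Sall3 were under the floor, as were all 5 CL6G36 readings of Mixl1, whose range was 0.75 with signals raised to the floor.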

How the results depend on the processing

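All 87 members kept their sign under every alternative in which they were tested. Where arrays or strains were only left out, this was fixed in advance, since a separated gene stays separated on fewer arrays. Raising signals to the floor could hardly reverse a sign either, since it keeps the order of the arrays above it. With deposited scaling 28 genes separated, 26 of them members: 25 lower, all members, and 3 higher (1 by 2-fold), of which 1 was a member, so that 24 of the 25 higher members, Calcr included, were lost. In that scaling CL6G26 against P19CL6 gave 27 calls, in place of 44. Raising signals to the floor left 217 calls among the sublines, in place of 363, and Sall3 and Mixl1 were no longer called. Leaving out a whole strain asks for separation over fewer arrays and gave more genes: 49 higher without CL6G36 and 42 higher without CL6G45. It gave 227 lower and 260 higher without CL6G52 (42 and 33 by 2-fold), 124 and 113 without P19CL6 (19 higher by 2-fold), and 141 and 67 without CL6G26 (42 lower by 2-fold). Without P19CL6 replicates 1 and 2, an alternative chosen after seeing the data, 109 genes separated. Leaving out 1 array at a time gave 88 to 97 separated genes, which hold all 87 members by the rule itself. With the replicate block, the subline test gave 349 calls and CL6G26 against P19CL6 gave 42; the numbers did not pair the samples. Signals near the floor give no order, so the differences of Sp5, Lhx1 and Wnt5b in particular are bounds or less.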
